A study of Mus musculus with 48 samples.

Results

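The genes described here are 10 members of the claudin family, Cldn1, Cldn2, Cldn3, Cldn4, Cldn5, Cldn7, Cldn8, Cldn12, Cldn15 and Cldn23, chosen by symbol from the 54532 genes of the deposited count table. The rule used no measured value, but earlier results of these data were known when the symbols were chosen. All 10 passed the filter on low counts, which kept 21986 genes. They were followed in duodenum and ileum of newborn to weaned mice at 8 ages.

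Claudins are small membrane proteins with a pair of extracellular loops that meet those of the neighbouring cell and form the strands of the tight junction, the seal near the top of epithelial cells. Some members form channels through that seal: Cldn2 and Cldn15 pass sodium and other small cations in the small intestine, and the sodium that returns to the lumen feeds sodium-coupled uptake of sugars and amino acids. Others, such as Cldn1, Cldn3, Cldn4 and Cldn8, are counted as sealing or barrier-type claudins, and Cldn5 is the main claudin of blood vessel endothelium. The make-up of a junction therefore sets which ions and small molecules can cross between cells.

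Each sample was a whole-thickness piece of intestine from a C57BL/6J mouse, either the 2 cm of duodenum beyond the stomach or the 2 cm of ileum before the caecum. Mice were untreated and wild type as far as the labels say, both sexes were used, and the ages were day 0, 2, 4, 6 and 8 and week 2, 3 and 4 after birth. All were kept with the dam until day 21 and had chow afterwards, so week 3 falls at about that change and week 4 after it, and age and diet cannot be told apart. The labels call the housing standard germ-free, which could not be settled as germ-free or specific pathogen free, and a litter usually gave 2 or 3 of the ages. Region and age together gave 16 groups of 3 samples, 48 in all, and the title places the study in work on necrotizing enterocolitis, a disease of newborn bowel.

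Total estimated counts ran from 16824021 to 65042327 per library. Mitochondrial genes held from 13.1% of them (ileum day 4 number 2) to 35.2% (ileum week 4 number 3, also the library with the fewest counts). Ileum day 8 number 1 had 32.7%. The part of these shares in the results was not tested. The day 6 libraries numbered 3 looked exchanged between the regions: Cldn8 stood at 57.6 CPM (counts scaled to library size, as described under processing) in the one labelled duodenum, against 2.23 and 4.37 in the other duodenum libraries, and at 2.90 in the one labelled ileum, against 64.7 and 94.6. Both were left out, which leaves 46 samples and 2 per region at day 6. Duodenum day 4 number 3 also stood apart, with the lowest rank correlation to its own group (0.952). Group means of Epcam, an epithelial adhesion gene, lay between 977 and 2297 CPM. The smooth muscle genes Acta2 and Myh11 stayed below 40 CPM (group means of 1.85 to 25.1 and 1.27 to 39.6). With no other full-thickness tissue to compare, whether the pieces were rich in epithelium or poor in muscle was not tested. Pancreatic acinar markers summed to 10.6 to 641 CPM in duodenum and 5.47 to 35.4 in ileum. Nothing says whether samples of a group came from separate animals, so p-values measure the spread between these samples. In whole tissue, fewer cells of a type and less RNA per cell cannot be told apart.

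Promoter sequence is shown for the channel pair Cldn2 and Cldn15, which moved in opposite directions with age, for Cldn3, whose group means followed those of Cldn15 most closely of all members, and for Cldn1, which fell furthest of the members in duodenum. Each window is the 250 bases before a RefSeq transcript start on build GRCm38.p6, 5′ to 3′ on the strand of the gene, and capitals mark a match to a searched motif on either strand.
Cldn2: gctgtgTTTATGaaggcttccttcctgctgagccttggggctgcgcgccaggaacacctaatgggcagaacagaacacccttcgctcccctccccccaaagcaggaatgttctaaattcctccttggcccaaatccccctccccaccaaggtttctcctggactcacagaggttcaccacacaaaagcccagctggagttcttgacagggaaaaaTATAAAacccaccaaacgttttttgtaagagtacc
Cldn15: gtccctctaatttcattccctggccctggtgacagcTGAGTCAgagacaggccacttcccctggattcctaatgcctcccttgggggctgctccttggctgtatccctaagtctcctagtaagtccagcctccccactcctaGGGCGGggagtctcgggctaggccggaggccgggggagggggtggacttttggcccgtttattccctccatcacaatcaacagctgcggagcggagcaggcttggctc
Cldn3: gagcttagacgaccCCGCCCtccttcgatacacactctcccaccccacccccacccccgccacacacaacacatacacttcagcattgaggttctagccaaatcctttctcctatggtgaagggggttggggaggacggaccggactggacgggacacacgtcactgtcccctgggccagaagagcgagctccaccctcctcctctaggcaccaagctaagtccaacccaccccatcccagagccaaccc
Cldn1: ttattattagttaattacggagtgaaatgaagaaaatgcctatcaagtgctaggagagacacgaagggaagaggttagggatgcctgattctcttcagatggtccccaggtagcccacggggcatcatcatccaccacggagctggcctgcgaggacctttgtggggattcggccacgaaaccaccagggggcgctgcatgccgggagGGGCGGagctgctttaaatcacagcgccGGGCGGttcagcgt
These windows are chrX:139800558-139800807 on the plus strand for Cldn2, chr5:136967619-136967868 plus for Cldn15, chr5:134985964-134986213 plus for Cldn3 and chr16:26371840-26372089 minus for Cldn1.

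The Cldn2 window holds a TATA box, spelled TATAAA, 35 to 30 bases before the start and a core of the caudal-type homeobox (CDX) motif, TTTATG, at 244 to 239. Neither stood in the other 3 windows. Over all 32851 promoters of the same length, 12.4% held TATAAA and 10.8% held TTTATG. The Cldn15 window holds a GC box (GGGCGG) at 108 to 103 and an AP-1 motif (TGANTCA) at 214 to 208, the Cldn3 window a GC box on the other strand at 236 to 231, and the Cldn1 window GC boxes at 42 to 37 and 14 to 9. A GC box stood in 32.7% of all promoters and TGANTCA in 6.75%. The GATA factor motif AGATAA, HNF4 (CAAAGTCCA) and the HNF1 palindrome, held by 9.99%, 0.384% and 0.0609% of promoters, had no match in the 11 windows found for 8 of the 10 genes. Cldn3 and Cldn4, each a gene of 1 exon, are neighbours on chromosome 5 in opposite orientation (134986214 to 134987472 plus and 134945119 to 134946934 minus, GENCODE M21). Cldn15 lies on the same chromosome at 136966616 to 136975858 and its window falls inside that span, downstream of the GENCODE gene start. Cldn2 spans 139800828 to 139811386 on chromosome X and Cldn1 spans 26356642 to 26371841 on chromosome 16.

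From day 0 to week 4 the claudin RNA of both regions changed its make-up. In duodenum 5 genes rose (Cldn15, Cldn3, Cldn7, Cldn4 and Cldn23) and 4 fell (Cldn1, Cldn8, Cldn2 and Cldn5). In ileum 4 rose (Cldn15, Cldn3, Cldn7 and Cldn23) and 4 fell (Cldn8, Cldn1, Cldn2 and Cldn12). A gene counts as changed when its Benjamini-Hochberg adjusted p was under 0.05 in edgeR's quasi-likelihood test over all 21986 genes. Of all genes tested, 40.5% passed that comparison in duodenum (20.4% higher, 20.1% lower) and 41.9% in ileum (21.5% higher, 20.4% lower), beside 9 and 8 of the 10 claudins. The median log2 difference of the 10 claudins was 0.21 in duodenum and -0.10 in ileum, beside -0.02 and 0.08 over all genes. All 10 differed among the 8 ages in each region, where 67.4% of genes did in duodenum and 58.7% in ileum. The duodenum call of Cldn12 was lost in 12 fits that left out 1 of its libraries, with adjusted p up to 0.21 (without week 4 number 1).

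**Figure D1:**
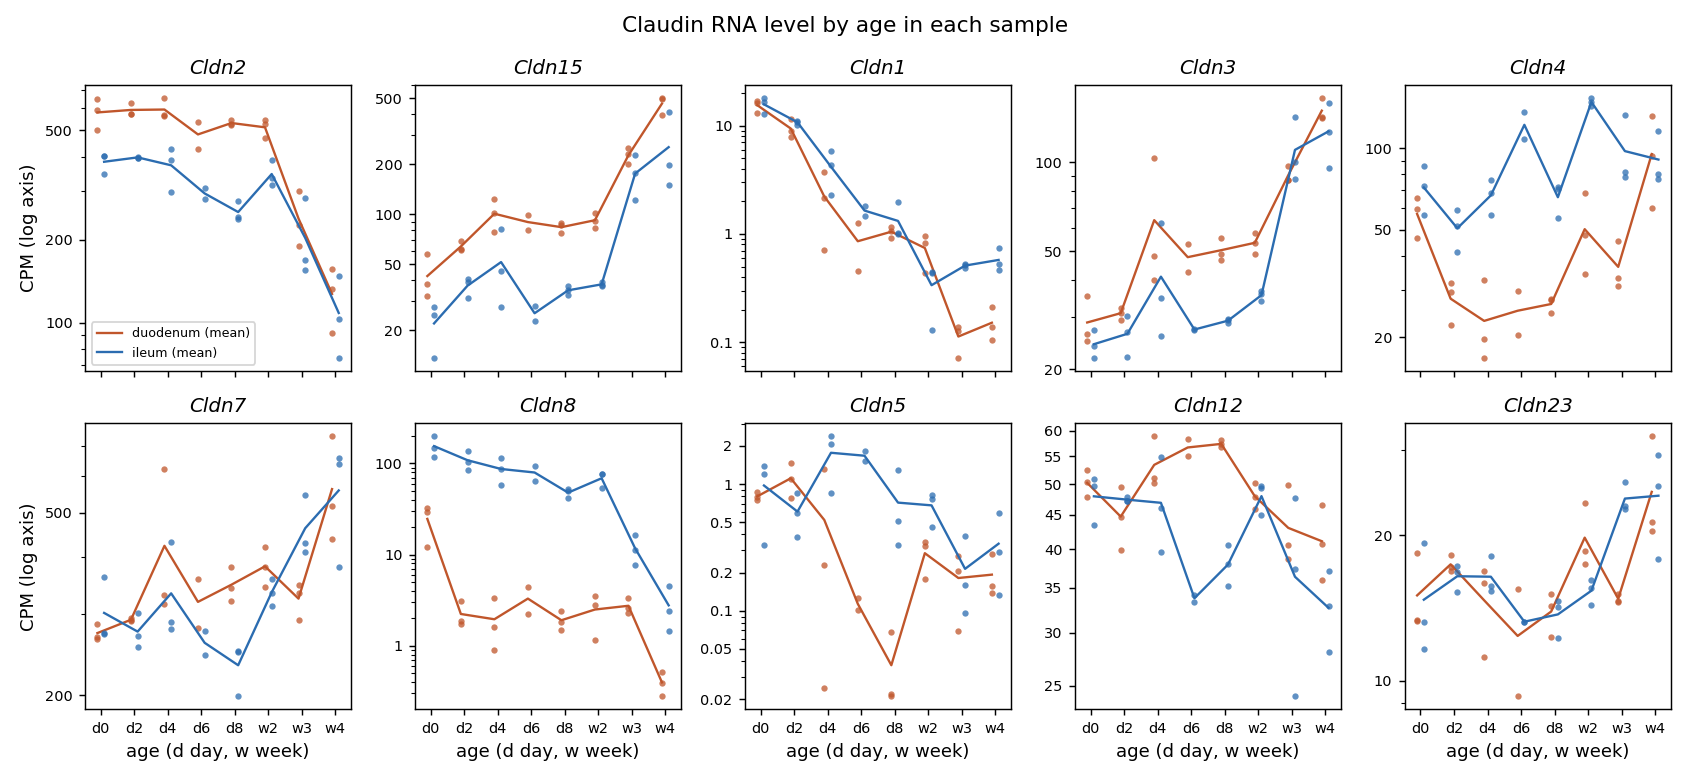
Level of each of the 10 claudin genes in CPM on a log axis (vertical) against age (horizontal), with 1 point per sample and a line through the group means, duodenum in orange and ileum in blue. Cldn15 and Cldn3 climb towards week 4 in both regions, Cldn1 and Cldn8 drop, and Cldn8 keeps ileum points above duodenum points at every age.

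The fold between the highest and the lowest group mean shows how unequal the members were. Cldn1 covered 136-fold in duodenum and 46.6-fold in ileum, Cldn8 covered 62.2-fold and 55.8-fold, and Cldn5 29.9-fold and 8.24-fold. Cldn15 covered 10.9-fold and 11.5-fold, and Cldn3 5.18-fold and 5.22-fold. Cldn2 covered 4.67-fold and 3.67-fold and Cldn4 4.13-fold and 2.93-fold. The steadiest were Cldn7 (2.06-fold and 2.41-fold), Cldn23 (1.99-fold and 1.82-fold) and Cldn12, at 1.40-fold and 1.47-fold.

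Levels of different genes were set side by side only per length, as CPM per kilobase of the longest coding transcript. On that scale Cldn7, which also sits along the lateral membrane, held the largest share of the 10 claudins in every group, from 40.3% in duodenum and 43.8% in ileum at day 0 to 46.2% and 54.7% at week 4. Cldn2 was second at day 0, with 37.3% in duodenum and 24.6% in ileum, and had 4.87% and 4.91% at week 4. Cldn15 went the other way, from 4.35% to 27.2% in duodenum and from 2.31% to 17.1% in ileum. Cldn3 went from 4.47% to 13.3% and from 3.76% to 13.4%. Cldn8 had 12.6% in ileum and 2.08% in duodenum at day 0, and 0.181% and 0.0197% at week 4. The sum over the 10 genes was 509 ± 20.7 CPM per kilobase (SD, n = 3) in duodenum at day 0 and 903 ± 163 at week 4. In ileum it was 515 ± 56.8 at day 0, 373 ± 34.7 at day 8 and 762 ± 196 at week 4.

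**Figure D2:**
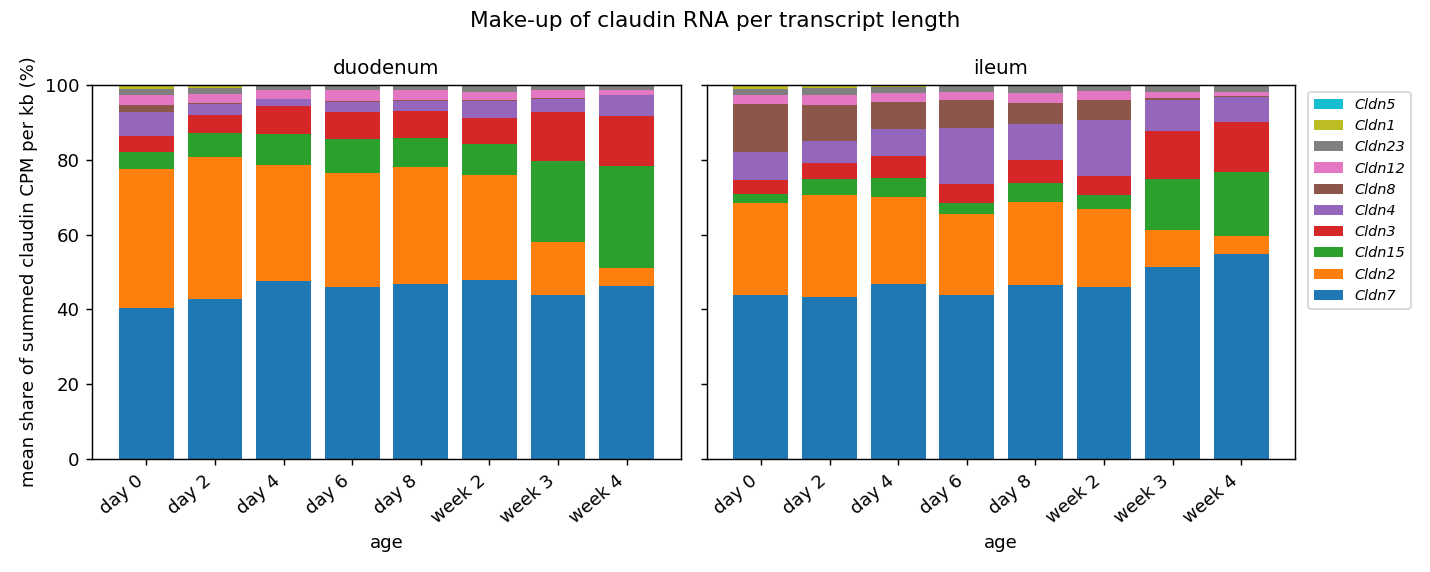
Mean share of each claudin (percent, vertical) in the summed CPM per kilobase of the 10 genes, by age (horizontal), for duodenum on the left and ileum on the right. The Cldn2 block shrinks from 37.3% to 4.87% in duodenum while the Cldn15 block grows from 4.35% to 27.2%, and most of both shifts falls between week 2 and week 4.

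The channel-forming pair exchanged places around weaning. Cldn2, a cation and water channel of leaky epithelia, was high in the suckling duodenum, at 502, 590 and 646 CPM on day 0 and at 542, 469 and 524 at week 2. At week 3 its 3 samples were at 300, 189 and 227, and at week 4 they were at 157, 92.1 and 133. The samples of day 0 to week 2 all lay above those of week 3, which lay above those of week 4. The fall from week 2 to week 3 was 1.10 ± 0.21 (SE) on the log2 scale (adjusted p = 0.000104), and that from week 3 to week 4 was a log2 difference of -0.91 ± 0.21 (adjusted p = 0.00212). Over the whole period Cldn2 fell by 2.19 ± 0.21 on the log2 scale in duodenum (adjusted p = 8.59e-11).

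Ileal Cldn2 dipped at day 8, was back within the range of day 0 or just below it at week 2, and fell from week 3 on. Its values were 402, 402 and 347 CPM at day 0, 241, 277 and 238 at day 8, and 334, 317 and 389 at week 2. They were 285, 169 and 155 at week 3 and 74.5, 148 and 103 at week 4. The day 8 samples lay below those of day 0 (log2 difference -0.61 ± 0.21, adjusted p = 0.033), but that call was lost without any 1 of 4 libraries (day 0 number 1 or 2, day 8 number 1 or 3, adjusted p between 0.0872 and 0.113). The mean summed CPM of 12 epithelial genes in ileum was 7837.8 at day 0, 5787.2 at day 8 and 7672.5 at week 2. Relative to their mean log2 level, Cldn2 was at -0.03, -0.36 and -0.19. Their part in the dip was not tested. The Cldn2 step from week 2 to week 3 was -0.77 ± 0.21 (adjusted p = 0.00399) and the step from week 3 to week 4 was -0.90 ± 0.21 (adjusted p = 0.00159). The last call was lost without ileum week 3 number 1 (-0.58, adjusted p = 0.068). From day 0 to week 4 ileal Cldn2 fell by 1.82 ± 0.21 on the log2 scale (adjusted p = 4.36e-09).

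Cldn15, the claudin of a selective sodium channel in small intestine and needed there for glucose uptake, rose in 2 phases in duodenum. Its values were 32.0, 37.8 and 57.4 CPM at day 0, 88.5, 76.8 and 85.6 at day 8, and 102, 82.9 and 91.1 at week 2. They were 201, 249 and 230 at week 3 and 394, 502 and 496 at week 4. No sample of week 3 reached the lowest of week 4, and no sample before week 3 reached the lowest of week 3. The early rise to day 8 was 0.98 ± 0.29 (adjusted p = 0.00657), reaching an adjusted p of 0.0503 without day 0 number 1. The step from week 2 to week 3 was 1.3 ± 0.29 (adjusted p = 0.00106) and the next was 1.03 ± 0.29 (adjusted p = 0.0139), which lost its call without week 3 number 1 (0.95, adjusted p = 0.071).

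In ileum most of the rise of Cldn15 lay between week 2 and week 3. Its values were 13.6, 27.7 and 24.6 CPM at day 0, 32.5, 37.0 and 34.8 at day 8, and 37.6, 36.9 and 38.9 at week 2, with 1 sample of day 4 (number 2) at 81.3. Day 8 lay above day 0 without overlap, but the difference of 0.66 ± 0.29 did not pass (adjusted p = 0.113). The later values were 122, 228 and 177 at week 3, and 412, 198 and 151 at week 4. Week 3 was above week 2 by 2.22 ± 0.30 on the log2 scale (adjusted p = 2.89e-07), with no overlap. Week 4 was not distinct from week 3 (0.53 ± 0.29, adjusted p = 0.235), and its samples spread widely, 412 in number 1 against 198 and 151. The step from week 2 to week 3 in ileum minus that in duodenum was 0.92 ± 0.41 and did not pass (adjusted p = 0.416). From day 0 to week 4 the rise was 3.45 ± 0.32 in duodenum (adjusted p = 2.36e-11) and 3.53 ± 0.32 in ileum (adjusted p = 1.37e-11).

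The ratio of Cldn15 to Cldn2, per transcript length and with no test, puts both movements in 1 number per sample. In duodenum it was 0.102, 0.103 and 0.142 at day 0, 0.301, 0.283 and 0.278 at week 2, 1.07, 2.11 and 1.62 at week 3, and 4.03, 8.72 and 5.97 at week 4. Cldn15 thus exceeded Cldn2 in all 3 duodenum samples of week 3 and in none of the earlier ones. In ileum the ratio was 0.0542, 0.110 and 0.113 at day 0, 0.180, 0.187 and 0.160 at week 2, 0.689, 2.15 and 1.83 at week 3, and 8.86, 2.14 and 2.34 at week 4. At week 3, 1 of the 3 ileum samples was still below 1, and at week 4 the mean (4.45 ± 3.82 SD) was carried by number 1.

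**Figure D3:**
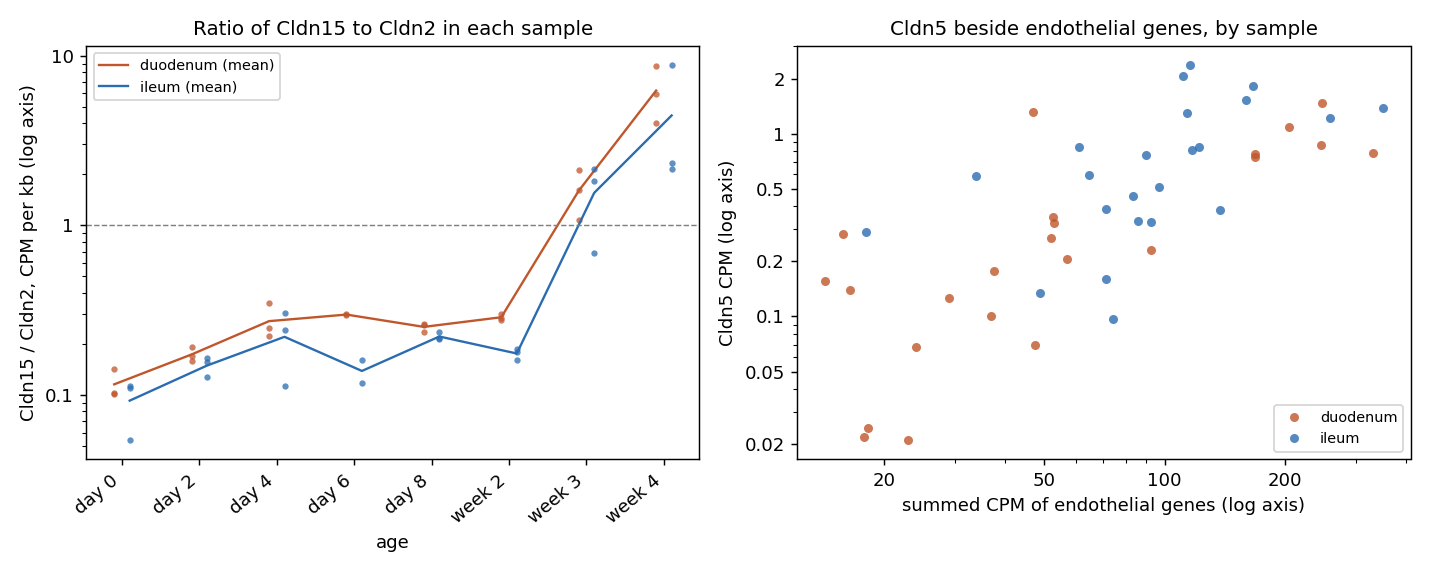
Left: ratio of Cldn15 to Cldn2 per transcript length (log axis) against age, with 1 point per sample and lines through the group means; the dashed line marks equal levels, first passed at week 3. Right: Cldn5 in CPM against the summed CPM of 12 endothelial genes (both log axes), 1 point per sample, with the 3 duodenum day 8 samples at 0.0211 to 0.0685 CPM among the lowest on both axes.

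Of the barrier-type claudins, Cldn1 and Cldn8 fell most from day 0 to week 4. The larger fall was that of Cldn1 in duodenum (-6.67 against -5.93 on the log2 scale) and that of Cldn8 in ileum (-5.83 against -4.78), differences that were not tested. Cldn1, whose loss in mice opens the skin barrier, was alike in both regions at birth, with 13.1, 16.2 and 17.0 CPM in duodenum and 12.7, 18.0 and 16.4 in ileum. At day 4 it was at 3.76, 2.17 and 0.716 in duodenum and at 5.84, 2.30 and 4.37 in ileum, and at day 8 at 1.08, 1.16 and 0.913 and at 0.990, 1.02 and 1.95. Every day 8 sample lay far below every day 0 sample. The fall from day 0 to day 8 was 3.87 ± 0.41 on the log2 scale in duodenum (adjusted p = 1.68e-09) and 3.54 ± 0.41 in ileum (adjusted p = 4.13e-08).

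After week 2 the regions parted for Cldn1. In duodenum it was at 0.956, 0.834 and 0.438 CPM at week 2 and at 0.0717, 0.14 and 0.128 at week 3, which is 13 counts over 3 libraries against 70. That is 6.55 times lower, with an exact 95% interval of 3.59 to 12.9 for counting error only, and the fitted difference was -2.71 ± 0.54 (adjusted p = 0.000215). In ileum the values were 0.435, 0.445 and 0.131 at week 2 and 0.520, 0.483 and 0.531 at week 3, a difference of 0.55 ± 0.50 that did not pass (adjusted p = 0.448). The difference between the 2 steps was 3.27 ± 0.74 (adjusted p = 0.0128), in a comparison where 1.38% of all genes passed, and it lost its call without duodenum week 3 number 1 (2.97, adjusted p = 0.0633). Ileum was above duodenum at week 3 (2.21 ± 0.58, adjusted p = 0.00874) and at week 4 (1.91 ± 0.57, adjusted p = 0.0117). These calls were lost without duodenum week 3 number 1 (1.91, adjusted p = 0.0584) and without duodenum week 4 number 1 or ileum week 4 number 3 (1.67 and 1.70, adjusted p = 0.0638 and 0.0647).

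Cldn8, a claudin of tight distal epithelia such as colon and the collecting duct, marked the ileum at every age. At day 0 it was at 198, 148 and 118 CPM in ileum and at 29.1, 32.7 and 12.2 in duodenum. By day 2 duodenum was at 1.86, 3.12 and 1.71 and ileum at 84.6, 136 and 105. The samples of the regions never overlapped. The log2 difference of ileum over duodenum grew from 2.66 ± 0.40 at day 0 to 5.59 ± 0.46 at day 2. It was 4.78 ± 0.45 at week 2, 2.08 ± 0.41 at week 3 and 2.76 ± 0.55 at week 4. All 8 ages passed, with adjusted p from 0.000692 at week 3 to 4.87e-10 at day 2, and no call was lost when 1 library was left out.

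The fall of Cldn8 came at different ages in the regions. Duodenum lost most of it before day 2 and stood at 1.82, 2.38 and 1.51 CPM at day 8 (-3.68 ± 0.43 against day 0, adjusted p = 2.23e-08), at 1.17, 3.52 and 2.80 at week 2 and at 3.37, 2.58 and 2.29 at week 3. Its second fall was at week 4, to 0.521, 0.278 and 0.389 (-2.78 ± 0.52 against week 3, adjusted p = 0.000288). Ileum was at 41.6, 51.9 and 49.9 at day 8 (-1.69 ± 0.38 against day 0, adjusted p = 0.00144) and at 53.5, 77.1 and 75.6 at week 2. It then fell to 16.2, 11.2 and 7.62 at week 3 (-2.55 ± 0.40, adjusted p = 4.79e-06) and to 1.46, 2.39 and 4.48 at week 4 (-2.11 ± 0.43, adjusted p = 0.000549). The week 3 step of ileum minus that of duodenum was -2.69 ± 0.58 (adjusted p = 0.00907). By week 4 the ileal level was below that of the newborn duodenum. Of 6 large intestine markers listed, 5 were in the table, and their sum was lower in ileum (13.6 to 34.4 CPM at day 0) than in duodenum (52.9 to 95.9). In ileum that sum was mostly Slc37a2 (12.5 to 29.6) and Aqp8 (1.15 to 4.68), with Car1, Hoxd10 and Hoxd11 at most 0.0418. Their part in the Cldn8 difference was not tested.

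Cldn4, a barrier-type claudin that decreases sodium passage in cultured epithelia, had the most irregular course. Duodenum began at 65.6, 59.3 and 46.5 CPM, was at 27.4, 27.7 and 24.5 on day 8, at 68.5, 47.9 and 34.2 at week 2, and at 60.3, 132 and 93.3 at week 4. Ileum was at 72.3, 56.7 and 85.7 on day 0, at 108 and 136 on day 6, at 148, 143 and 153 at week 2, and at 79.9, 116 and 76.8 at week 4. The regions overlapped at day 0 and week 4 and did not overlap at any of the 6 ages between. The log2 difference of ileum over duodenum was 0.33 ± 0.26 at day 0 (adjusted p = 0.543), 2.28 ± 0.33 at day 6 (adjusted p = 3.39e-06), 1.56 ± 0.26 at week 2 (adjusted p = 4.2e-05) and -0.07 ± 0.26 at week 4 (adjusted p = 0.872).

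Within duodenum, Cldn4 fell by 1.10 ± 0.26 on the log2 scale from day 0 to day 8 (adjusted p = 0.000723). It rose by 1.38 ± 0.26 from week 3 to week 4 (adjusted p = 0.000253). Week 4 against day 0 gave 0.74 ± 0.26 (adjusted p = 0.0208), a call lost without day 0 number 3 (0.65, adjusted p = 0.0717) or without week 4 number 2 (0.47, adjusted p = 0.16). In ileum the matching difference was 0.34 ± 0.26 (adjusted p = 0.294).

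Cldn3, a sealing claudin found along the whole gut, rose alongside Cldn15. In duodenum it was at 24.9, 26.2 and 35.2 CPM on day 0, at 55.5, 46.8 and 49.0 on day 8, at 57.9, 53.5 and 48.9 at week 2, at 86.8, 97.1 and 87.1 at week 3 and at 141, 164 and 141 at week 4. In ileum it was at 27.0, 21.8 and 24.1 on day 0, at 34.0, 36.0 and 36.8 at week 2, at 87.6, 142 and 100 at week 3 and at 126, 159 and 95.6 at week 4. Week 4 samples lay above all day 0 samples in each region, by 2.37 ± 0.25 in duodenum (adjusted p = 7.74e-10) and 2.38 ± 0.26 in ileum (adjusted p = 6.69e-10). The step at week 3 was 1.63 ± 0.25 in ileum (adjusted p = 2.16e-06). In duodenum it was 0.76 ± 0.24 (adjusted p = 0.0238), which lost its call without week 2 number 2 or 3 or week 3 number 2 (0.69 to 0.76, adjusted p between 0.0654 and 0.094). The difference between these steps did not pass (0.87 ± 0.34, adjusted p = 0.297). Duodenum day 4 number 3, the library that stood apart, had 103 CPM against 40.1 and 48 in the other 2.

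Cldn7 changed less. It was at 286, 268 and 266 CPM in duodenum and 362, 272 and 273 in ileum at day 0, and at 438, 734 and 516 and at 637, 659 and 381 at week 4. The rise was 1.04 ± 0.21 in duodenum (adjusted p = 0.000133) and 0.89 ± 0.21 in ileum (adjusted p = 0.000859). Over the mean of the 8 ages the regions did not pass as different (-0.11 ± 0.08, adjusted p = 0.233).

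**Figure D4:**
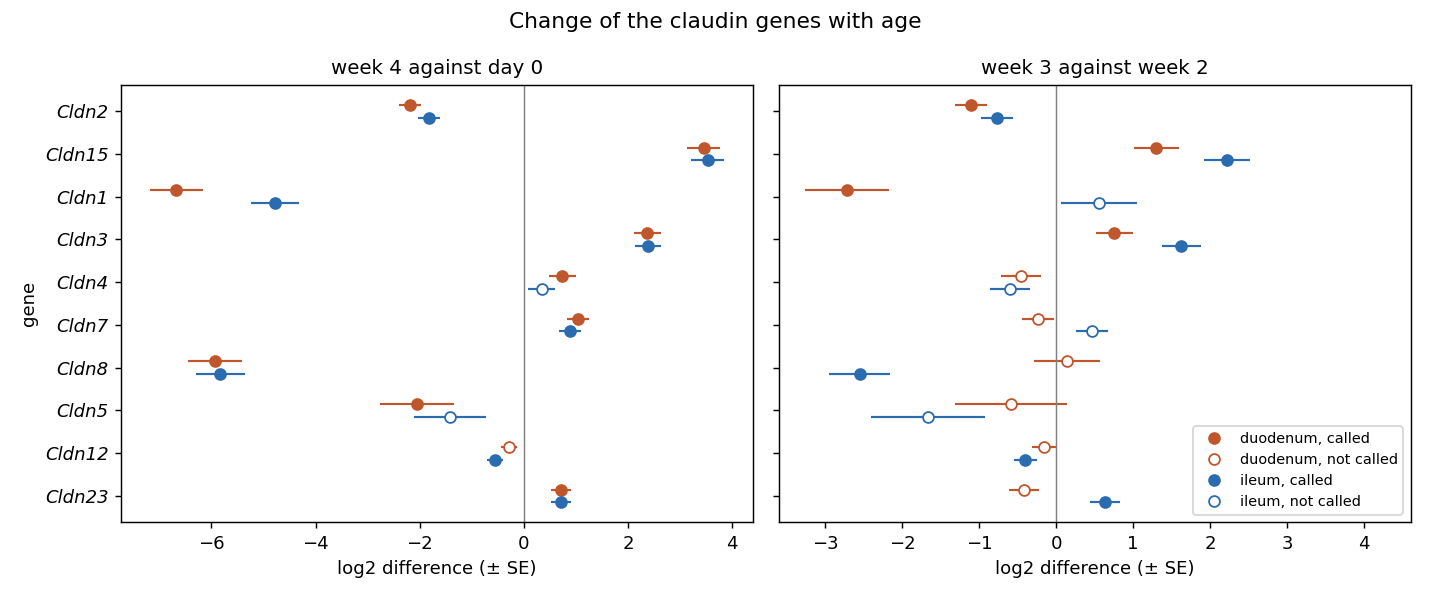
Log2 difference (horizontal, with its standard error as a bar) of week 4 against day 0 on the left and of week 3 against week 2 on the right, for each claudin (vertical) in duodenum (orange) and ileum (blue); filled points passed the test. On the left Cldn15 lies furthest right (3.45 and 3.53) with Cldn1 (-6.67 and -4.78) and Cldn8 (-5.93 and -5.83) furthest left, and on the right Cldn1 passed in duodenum (-2.71) and Cldn8 in ileum (-2.55).

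Cldn5 fell in duodenum by day 8, as did the endothelial genes listed. It was low throughout, at 0.749, 0.865 and 0.784 CPM in duodenum on day 0 and at 0.0220, 0.0211 and 0.0685 on day 8, which is 5 counts in 3 libraries against 89. The level was 21.6 times lower at day 8, with an exact 95% counting interval of 8.90 to 68.0, and the fitted difference passed (adjusted p = 7.04e-05). Ileum at day 8 was at 0.330, 0.509 and 1.3, with 67 counts, 22.1 times the duodenum level (9.0 to 70.2), and the fitted difference passed too (adjusted p = 0.000228). At day 6 ileum was also higher (log2 difference 3.84 ± 0.91, adjusted p = 0.00116). That difference rests on 2 libraries per region, with only 4 and 5 counts in those of duodenum. From day 0 to week 4 Cldn5 fell in duodenum by 2.05 ± 0.71 on the log2 scale (adjusted p = 0.0191), a call lost without week 4 number 1 or 2 (adjusted p = 0.0742 each). In ileum it gave -1.42 ± 0.69 (adjusted p = 0.096).

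The 12 endothelial genes listed, among them Pecam1, Cdh5 and Kdr, summed to 168 to 330 CPM in duodenum on day 0, 17.8 to 24.0 on day 8 and 14.2 to 16.4 at week 4. In ileum they summed to 92.5 to 114 on day 8. All 12 fell in duodenum by day 8, where 41.2% of all genes were called, and 11 of 12 were higher in ileum than in duodenum at day 8, where 39.6% were. Their part in the Cldn5 result was not tested. Relative to the mean log2 level of these genes, Cldn5 differed by 0.66 between day 8 and day 0 in duodenum, with overlapping samples, and by 0.19 between the regions at day 8. Duodenum day 8 Cldn5 (0.0211 to 0.0685 CPM) lay below the 0.1 CPM added before taking logs, which shrinks its differences. Without that addition it was 21.6 times lower at day 8, while the mean endothelial sum went from 248 to 21.5 CPM. The day 8 relative values therefore cannot show whether Cldn5 kept pace with the endothelial genes. At week 4 Cldn5 was higher relative to them than at day 0, by 2.54 in duodenum and 2.13 in ileum, and than at week 3, by 2.11 and 2.31. None of these samples overlapped. Duodenum week 4 Cldn5, at 0.139 to 0.283 CPM, was also close to the added 0.1 CPM, so these sizes are approximate.

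Cldn12, which takes part in calcium passage, and Cldn23, abundant in differentiated cells at the gut surface, were the steadiest. Cldn12 was between 35.9 and 58.9 CPM in every duodenum sample and between 24.1 and 54.9 in every ileum sample. It fell in ileum from 49.6, 50.8 and 43.4 at day 0 to 37.1, 32.9 and 28.1 at week 4 (-0.55 ± 0.15, adjusted p = 0.00371). In duodenum the difference was -0.29 ± 0.15 (adjusted p = 0.128). Ileum was below duodenum at day 6 (-0.75 ± 0.19, adjusted p = 0.00205) and day 8 (-0.60 ± 0.15, adjusted p = 0.00221), with no overlap.

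Cldn23 rose in both regions from day 0 to week 4, by different courses. Duodenum was at 13.3, 13.3 and 18.4 CPM on day 0, 23.3, 18.6 and 17.4 at week 2, 15.1, 14.6 and 14.6 at week 3, and 20.4, 32.1 and 21.3 at week 4. Ileum was at 13.2, 11.6 and 19.3 on day 0, 14.4, 15.5 and 16.2 at week 2, 23, 25.8 and 22.7 at week 3, and 25.3, 29.3 and 17.8 at week 4. Week 4 against day 0 gave 0.71 ± 0.20 in duodenum (adjusted p = 0.00344) and 0.72 ± 0.20 in ileum (adjusted p = 0.00329). From week 2 to week 3 duodenum samples went down without overlap (-0.42 ± 0.20, adjusted p = 0.144, not passed) and ileum rose (0.63 ± 0.20, adjusted p = 0.013). This step, ileum minus duodenum, was 1.05 ± 0.28 (adjusted p = 0.0414), and 11 of 12 fits that left out 1 library lost that call (adjusted p of 0.0551 to 0.153). Relative to the mean log2 level of 12 epithelial genes, with no test, ileal Cldn23 went down from week 2 to week 3 (-0.50). Relative to Epcam alone it went up (0.35).

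Between neighbouring stages the claudins passed at different times. From day 0 to day 8, 6 passed in duodenum (background 41.2%) and 3 in ileum (19.3%). From day 8 to week 2, 2 passed in each (15.7% and 6.64%). From week 2 to week 3, 4 passed in duodenum (18.3%) and 6 in ileum (26.8%). From week 3 to week 4, 7 passed in duodenum (12.7%) and 2 in ileum (16.1%). The duodenum count of that last interval was 4 without week 4 number 2, and the ileum count 1 without week 3 number 1. Over all genes those fits called 1710 in place of 2794 and 2333 in place of 3534. For day 8 to week 2 the claudin count was 0 or 1 in duodenum without day 8 number 1, 2 or 3 or week 2 number 1 or 3, and 1 in ileum without day 8 number 1 or 3 or week 2 number 3. Over all genes, fits of that interval without 1 library called 822 to 3017 in duodenum (3448 with all). In ileum they called 60 to 1376 (1460 with all). Ileum samples of week 3 lay above those of week 4 without overlap for Cldn2 and Cldn8.

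Averaged over the 8 ages, ileum exceeded duodenum for Cldn8 (4.07 ± 0.17, adjusted p = 6.51e-20), Cldn5 (1.44 ± 0.26, adjusted p = 1.19e-05), Cldn4 (1.16 ± 0.10, adjusted p = 7e-13) and Cldn1 (0.69 ± 0.16, adjusted p = 0.00038). Duodenum exceeded ileum for Cldn15 (-1.04 ± 0.11, adjusted p = 1.7e-10), Cldn2 (-0.58 ± 0.07, adjusted p = 2.04e-08), Cldn3 (-0.41 ± 0.09, adjusted p = 0.000155) and Cldn12 (-0.26 ± 0.06, adjusted p = 0.000108). That is 4 higher and 4 lower of 10, where 62.1% of all genes passed (31.9% higher, 30.2% lower). Smooth muscle genes were also higher in ileum, 7 of 8 on the same mean, and their part in these differences was not tested. The count of claudins that passed grew from 2 at day 0 (background 6.10%) and 2 at day 2 (8.01%) to 6 at day 4 (26.6%), 7 at day 6 (35.3%) and 8 at day 8 (39.6%). It was 4 at week 2 (22.4%), 4 at week 3 (14.2%) and 3 at week 4 (28.4%). Leaving out 1 library gave 1 at day 0 (duodenum number 2 or 3, ileum number 1 or 3) and at day 2 (duodenum number 2 or 3, ileum number 1 or 2), 2 at day 4 without ileum number 3, and 1 at week 4 without ileum number 3. Over all genes, fits without 1 library called 482 to 1279 at day 0 (1342 with all) and 930 to 1445 at day 2 (1762). They called 3205 to 7186 at day 4 (5855) and 3250 to 7228 at week 4 (6234).

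At day 8, the age of most calls, both channel claudins were higher in duodenum. Cldn2 stood at 546, 525 and 521 CPM there against 241, 277 and 238 in ileum (-1.07 ± 0.21, adjusted p = 0.00014). Cldn15 stood at 88.5, 76.8 and 85.6 against 32.5, 37.0 and 34.8 (-1.26 ± 0.29, adjusted p = 0.00098). Cldn3 followed, at 55.5, 46.8 and 49.0 against 29.2, 28.6 and 29.7 (-0.79 ± 0.24, adjusted p = 0.0101), while Cldn4 was higher in ileum (1.31 ± 0.26, adjusted p = 0.000207). By week 4 Cldn2 did not pass (-0.23 ± 0.21, adjusted p = 0.416) and Cldn3 did not either (-0.23 ± 0.24, adjusted p = 0.489).

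**Figure D5:**
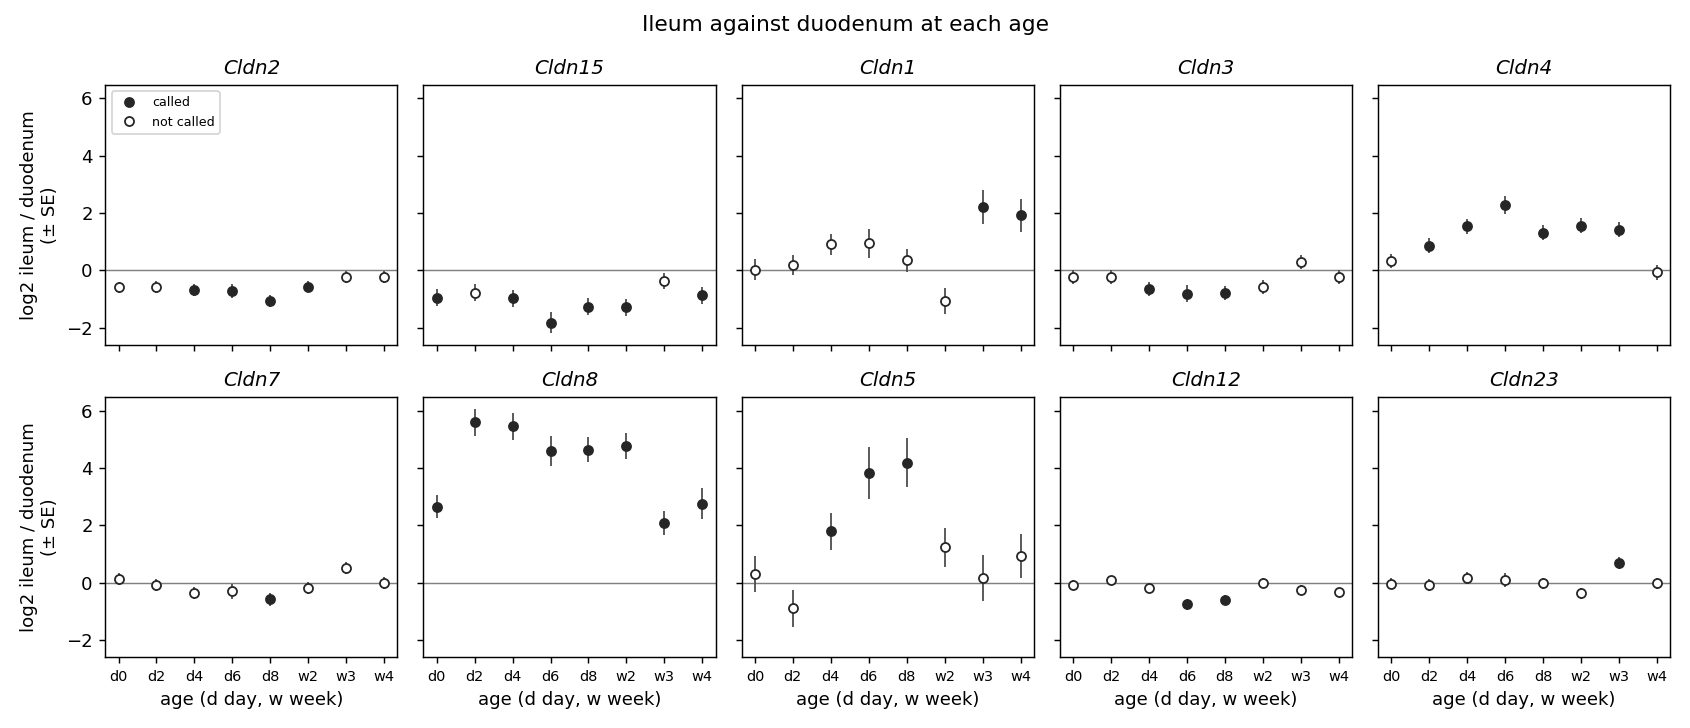
Log2 difference of ileum over duodenum (vertical, with its standard error as a bar) against age (horizontal) for each claudin; filled points passed the test and the line at 0 marks equal levels. Cldn8 stays above 0 throughout (2.08 to 5.59), Cldn4 rises to 2.28 at day 6 and returns to -0.07 at week 4, and Cldn15 lies below 0 at every age.

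The regional difference itself varied with age for 4 claudins, where 22.4% of all genes passed the interaction of region and age: Cldn8 (adjusted p = 5.08e-05), Cldn4 (adjusted p = 0.000505), Cldn5 (adjusted p = 0.00496) and Cldn1 (adjusted p = 0.0111). Cldn12 missed the threshold (adjusted p = 0.0506). With the day 6 libraries numbered 3 put back under their labels, the interaction passed for 1 claudin and ileum against duodenum at day 6 for 0, in place of 7. At that setting 0 of all genes passed at day 6 in edgeR's test, with 884 at an unadjusted p under 0.05. The interaction passed for 7 claudins without duodenum day 4 number 3 and without ileum day 4 number 2, and in the former fit for 6547 of all genes in place of 4930. With the former left out, the day 4 Cldn3 difference went from -0.63 (adjusted p = 0.0499) to -0.10 (adjusted p = 0.801).

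Epithelial RNA also changed with age, so each claudin was set beside it. The summed CPM of 12 epithelial genes was 7474 to 8365 in duodenum and 7123 to 8782 in ileum at day 0. Group means were lowest at day 6 in duodenum (6029) and at day 8 in ileum (5787). The sums were 9765 to 11531 and 13671 to 18434 at week 3, and 11990 to 16642 and 10963 to 16694 at week 4. Relative to their mean log2 level, and with no test, Cldn15 was still 2.63 higher at week 4 than at day 0 in duodenum and 2.57 in ileum, and Cldn3 1.53 and 1.48 higher. Cldn7 was at 0.16 and -0.02, Cldn23 at -0.16 and -0.16, and Cldn4 at -0.17 and -0.54, all with overlapping samples. Cldn2 was at -3.06 and -2.75, Cldn12 at -1.15 and -1.43, Cldn8 at -6.40 and -6.74, and Cldn1 at -6.81 and -5.43, none overlapping. Samples of the 2 ages did not overlap for Cldn15 and Cldn3. Of 8 leukocyte genes, 5 were higher and 2 lower at week 4 in duodenum and 6 higher and 1 lower in ileum, beside 40.5% and 41.9% of all genes called. Their summed CPM was lower at week 4 in duodenum (77.9 to 89.9 against 99.9 to 125 at day 0) and higher in ileum (156 to 409 against 78.0 to 100.4). Their part in the claudin changes was not tested.

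Among other tight junction genes, Lsr, F11r and Tjp3 rose in both regions from day 0 to week 4. Of 24 listed, 5 rose and 9 fell in duodenum, and 5 rose and 7 fell in ileum. Over all genes 20.4% rose and 20.1% fell in duodenum, and 21.5% and 20.4% in ileum. The median log2 differences of the list were -0.09 and -0.02, beside -0.02 and 0.08 over all genes. Ocln, the occludin of the same strands, was at 0.07 and -0.03 on the log2 scale, neither of which passed. Tjp1, a scaffold gene, fell in duodenum (-0.49) and did not pass in ileum (0.03), while Tjp3 rose in both (0.74 and 1.00). Lsr, angulin-1 of the corners where 3 cells meet, rose by 1.11 and 0.80 and F11r, junctional adhesion molecule A, by 1.10 and 1.03. Cgn, cingulin, was lower in both (-0.41 and -0.46), and Marveld2, tricellulin, in ileum (-0.43) but not by test in duodenum (-0.27).

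The largest changes on that list were falls of Jam2 (-3.79), Jam3 (-2.86) and Cgnl1 (-2.00) in duodenum and of Cgnl1 (-2.44), Jam2 (-2.15) and Esam (-1.89) in ileum. Jam2, Jam3 and Esam are also made by endothelium. From week 2 to week 3, 2 of the 24 fell in duodenum (18.3% of all genes called), and 3 rose and 1 fell in ileum (26.8% called), the fall being Cgnl1 (-2.79). Over the mean of the ages 9 were higher and 3 lower in ileum, beside 31.9% and 30.2% of all genes, led by Cgnl1 (1.63), Ildr2 (1.59) and Ildr1 (1.15).

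Of 17 regulators and partners of claudins tested, 9 rose and 3 fell in duodenum and 9 rose and 4 fell in ileum from day 0 to week 4. Over all genes 20.4% rose and 20.1% fell in duodenum, and 21.5% and 20.4% in ileum. The median log2 difference of the 17 was 0.58 and 0.66, beside -0.02 and 0.08 over all genes. The largest changes were rises of Vdr, the vitamin D receptor (3.97 and 2.99), and of the transcription factor Klf4 (1.79 and 2.12), and a fall of the membrane protease Prss8 (-1.83 and -2.80). Epcam, which binds and stabilises Cldn7 protein, rose by 0.91 and 0.88. Averaged over ages, 3 were higher and 7 lower in ileum (31.9% and 30.2% of all genes), with Gata4 the lowest at -1.46.

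The 3 genes closest to each claudin over the 16 group means of log2 CPM were found by Pearson correlation, as a description over groups that share libraries and depth. Closest to Cldn15 were Alas1 (0.98), Atp10b and Smpdl3b, and to Cldn3 B4galnt2 (0.98), Mapk13 and Chdh. Cldn2 was closest to Cpt1a (0.97), which imports fatty acids into mitochondria, Acot2 and Phf2, and Cldn8 to Armh4 (0.97), Mospd2 and Il18r1. For Cldn7 the nearest was the tight junction gene Lsr (0.94), then Vasp and Prr15l, and for Cldn1 Ubash3b (0.93), Mptx1 and Prnp. Cldn4 paired with Prkx (0.91), Mtmr11 and Foxj2, Cldn5 with Pea15a (0.93), Akap12 and Sirpa, Cldn12 with Pcyox1 (0.93), Exoc2 and Timm29, and Cldn23 with Enpp7 (0.95), Ptprh and Wipf2. Between members the highest value was 0.96, for Cldn15 and Cldn3.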

How the data were processed

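The authors deposited estimated counts per gene, already whole numbers, which the name of their table ties to tximport, and a normalized signal for 40 of the 48 libraries, which equalled the count divided by 1 factor per library (largest deviation 4.7e-10). The submitters' processing notes name STAR 2.6.1d, Salmon 0.14.2, DESeq2 1.30.1 and build mm10 (GRCm38), without saying what each made. In estimated counts, a model divides reads shared by several transcripts. Symbols came from the normalized tables, which name 51106 genes.

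Counts were fitted here with edgeR 4.0.16 (R 4.3.3): filterByExpr by group, TMM scaling (trimmed mean of M values) and then a robust quasi-likelihood model with 1 mean per region and age over 46 libraries. There were 23 contrasts, each adjusted by the Benjamini-Hochberg method over 21986 genes with a threshold of 0.05. A standard error is the log2 difference divided by the square root of its F. CPM are edgeR's counts scaled by the TMM-adjusted library size. Relative levels used log2 of CPM plus 0.1, and correlations log2 CPM with a prior count of 2. Gene positions and lengths are from GENCODE M21, whose release holds 54409 of the gene identifiers, and promoters from RefSeq.

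All 10 claudins are named by rule, with the other tight junction genes Ocln, Tjp1, Tjp3, Cgn, Marveld2, Lsr and F11r plus the 3 largest changes of that list and of the regulator list; 1 further gene the rule names is not reported here. The members and lists were chosen with earlier results of these data known. Alternatives were relative log expression (RLE) scaling, no low-count filter, DESeq2 1.42.0, only the compared groups, all 48 libraries, the 40 with a normalized column, a replicate block and each library left out, and, chosen after seeing the data, leaving duodenum day 4 number 3 out of every fit. On counts simulated for week 4 against day 0 in ileum (20644 genes, 200 changed), the fit recovered 31% of 2-fold and 71% of 4-fold changes with 1.92% of calls false. On the same counts the interaction of region and age recovered 10% of 2-fold and 54% of 4-fold changes, with 11.1% of calls false. Far more genes than 200 passed in the real comparisons, so these rates may not carry over to them. No 2 libraries of a group were alike within sampling noise (chi-square of at least 11.5 per gene). Marker lists not described in the text, stomach and red blood cell, are given with the other observations.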

Additional observations from a re-analysis of the deposited data

Results flagged for a closer look

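The change with age differed between duodenum and ileum for 4 claudins, by a test of the interaction of region and age: Cldn8 with an adjusted p of 5.08e-05, Cldn4 with 0.000505, Cldn5 with 0.00496 and Cldn1 with 0.0111. For Cldn5 the endothelial genes differed between the regions at the same ages, and their part was not tested.

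The step from week 2 to week 3 also differed between the regions, by a test of ileum minus duodenum. For Cldn1 that difference was 3.27 on the log2 scale, with a fall in duodenum. For Cldn8 it was -2.69, with a fall in ileum. For Cldn23 it was 1.05, with a rise in ileum (0.63) and lower values in duodenum (-0.42, not passed), and it is the least stable of the 3, since leaving out 1 library lost the call in 11 of 12 fits.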

How the results depend on the processing

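Of 4363 values of single claudins under an alternative, 4123 kept their side of the threshold, 166 lost the call and 74 gained it. None reversed direction while called in either fit (0). Among the 4123, 73 changed direction without being called in either fit. Calls of week 4 against day 0 held under every alternative run for Cldn1, Cldn2, Cldn3, Cldn7, Cldn8, Cldn15 and Cldn23. In all, 33 of 120 called values lost the call in at least 1 fit without 1 library.

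Most counts of claudins called stayed within 1.5 times of those reported. With all 48 libraries they were 1 for day 8 against day 0 in ileum (reported 3), 0, 1, 3 and 0 for the regions at day 0, 2, 4 and 6, 1 for the interaction, 0 and 1 for week 2 against day 8, 1 for the difference of the week 3 step, and 4 and 1 for week 4 against week 3 in duodenum and ileum. Without the low-count filter they were 1 for the regions at day 0 and 1 at day 2. With the 40 libraries that have a normalized column, or without duodenum day 4 number 3, the interaction gave 7. With only the compared groups they were 4 and 2 for the regions at day 2 and 4, 5 for week 2 against day 8 in ileum and 1 for week 4 against week 3 in ileum. The cause of these shifts was not tested.

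Leaving out 1 library gave 1 to 2 for the regions at day 0 and at day 2, 2 to 6 at day 4, 5 to 7 at day 6, 7 to 8 at day 8, 3 to 4 at week 2, 3 to 5 at week 3 and 1 to 4 at week 4. It gave 4 to 7 for the interaction, 0 to 2 and 1 to 2 for week 2 against day 8, 1 to 3 for the difference of the week 3 step, and 4 to 7 and 1 to 2 for week 4 against week 3. The count of 0 came without duodenum week 2 number 1, where 822 of all genes passed in place of 3448. Counts over all genes moved in these fits too, from 3449 to 6547 for the interaction (4930 with all) and from 164 to 298 for the difference of the week 3 step (303).

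Counts over all genes moved by more than 1.5 times as follows. For week 2 against day 8 in duodenum, 3448 became 1528 with all 48 libraries and 6278 with the compared groups. In ileum 1460 became 417, 886 without the filter, 3037 with 40 libraries and 3472 with the compared groups. For week 4 against week 3, 2794 in duodenum became 4568 with 40 libraries, and 3534 in ileum became 1527 with the compared groups. Between regions, day 0 went from 1342 to 578 with 48 libraries, 894 without the filter and 2419 with 40, day 2 from 1762 to 1024, 2903 with 40 and 5408 with the compared groups, day 4 from 5855 to 3851 and 354 with the compared groups, and day 6 from 7762 to 0. Week 2 went from 4922 to 2561 and 7426, week 3 from 3117 to 1376 and 5585, week 4 from 6234 to 2491 with the compared groups, the interaction from 4930 to 947 and 9512, and the step difference from 303 to 113 with 48 libraries, 568 with DESeq2, 672 with 40 and 584 with the compared groups.

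A replicate block was set on age and sample number for contrasts between regions, and on the number within a region for the others. It made the count 5 in place of 4 for the interaction and 5 in place of 4 for the regions at week 2. The other 21 counts did not change. The numbers were not taken as pairs: of 23 same-numbered duodenum and ileum libraries, 9 had deviations correlated above 0.1 (lowest -0.147, mean 0.076, against -0.038 for other numbers), and 16 correlated best with their own number. These values do not settle whether same-numbered libraries share an animal, and the reported region tests treat them as independent.

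Relative levels were also taken with Epcam alone in place of 12 epithelial genes, or with 1 CPM added in place of 0.1. Of 360 such differences, 261 stayed within the pooled SD of the reported one, 96 moved further and 3 reversed. A sign change was counted as reversed only where samples did not overlap at both settings. All 3 came with Epcam alone. They were Cldn12 between regions at week 2 (-0.14, with the 12 genes 0.18), and week 3 against week 2 in ileum for Cldn23 (0.35, with the 12 genes -0.50) and Cldn7 (0.18, with the 12 genes -0.67). Depth limits Cldn5 at day 8 and Cldn1 from week 3 on in duodenum, which rest on 1 to 6 counts per library. Duodenum Cldn5 was also low in counts at day 6 (4 to 5 per library) and week 4 (5 to 8). Ileum Cldn5 had 2 to 8 counts at week 3 and 2 to 19 at week 4, and ileum Cldn1 had 4 to 21 at week 2.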

Other observations

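Of 16 other claudin genes in the table, 6 passed the filter on low counts (Cldn6, Cldn10, Cldn14, Cldn18, Cldn19 and Cldnd1). Cldn19 nearly disappeared after week 2. Cldn19, known for its part in magnesium handling in the kidney, was at 27.8, 29.5 and 28.8 CPM in duodenum at day 2 and at 20.7, 14.0 and 14.8 at week 2. At week 3 it was at 0.161, 0.0349 and 0.231, with 19 counts over the 3 libraries against 1651, which is 106 times lower (exact 95% counting interval 67.5 to 176). At week 4 no read was counted in the 3 duodenum libraries, at least 556 times lower than week 2 when set at 3 counts over the group. In ileum Cldn19 was at 6.52, 3.39 and 7.55 at week 2, at 0, 0 and 0.241 at week 3 and at 0.117, 0 and 0.134 at week 4. The step at week 3 passed in both regions (adjusted p = 1.9e-13 and 7.8e-11 in edgeR's quasi-likelihood test). Cldn14 fell from day 0 to week 4 in both regions at levels up to 1.11 CPM, and Cldnd1, a claudin-domain gene, rose in duodenum (0.56, adjusted p = 0.00995). Cldn18, which is also on the stomach marker list, reached at most 1.92 CPM.

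Stomach markers summed to 0.729 to 104 CPM in duodenum and 0.178 to 19.8 in ileum, and red blood cell markers to 68.2 to 4427 over all libraries.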
